A study of Homo sapiens with 14 samples.

Results

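Deoxynucleoside triphosphates (dNTPs) are the building blocks of DNA, and the 9 genes described here encode enzymes that make, salvage or guard them: *RRM1*, *RRM2*, *TYMS*, *DUT*, *DTYMK*, *TK1*, *DCK*, *NME1* and *DCTPP1*. They were chosen by function, with earlier results of these data known, and were matched by symbol. All 9 were found among the 26732 genes listed in both count tables. RNA-seq was performed on 2 established human lung adenocarcinoma cell lines, A549 and H1792, which had received the solvent DMSO or AMG900 (0.1 µM), an inhibitor of all aurora kinases, for 48 h. The A549 libraries comprised 4 with DMSO and 4 with AMG900, and the H1792 libraries 3 with each. A549 was grown in DMEM and H1792 in RPMI, both with fetal bovine serum, so the line, the medium and the count table coincide and cannot be told apart. Each line is a single culture model at 1 dose and 1 time point. The labels number the replicates but do not say whether they are dishes, passages or separate experiments. The p-values therefore measure the spread between libraries of a line, which may be technical. The treatment protocol speaks of 3 replicates per treatment, whereas 4 libraries per treatment are listed for A549.

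Ribonucleotide reductase, built from a large subunit (RRM1) and a small subunit (RRM2), converts ribonucleotides to deoxyribonucleotides. Thymidylate is made from deoxyuridine monophosphate by TYMS or taken up as thymidine and phosphorylated by TK1, and several of these genes are known to be transcribed mainly around S phase in dividing cells. Aurora kinases act in mitosis, and cells in which they are inhibited often fail to divide.

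Library totals ran from 4254644 to 18962883 counts in A549 and from 42760874 to 79902934 in H1792, and the shallowest library was A549 DMSO replicate 1. Of the markers of origin, *KRT8* and *KRT18* were abundant in both lines, *KRT8* at 2880 to 4680 CPM (read counts scaled to the size of the library) in A549 and 403 to 524 in H1792. *EPCAM* was at 0.091 to 0.539 CPM in A549 and 3.26 to 3.83 in H1792, and *CDH1* was at 15.7 to 44.8 and 0.57 to 1.04. *KRT19* was at 20.3 to 86.2 and 5.79 to 10.2. The alveolar markers *NKX2-1*, *SFTPB* and *SFTPC* were at most 0.582 CPM in either line, and *NAPSA* at most 1.46. Of the leukocyte and endothelial markers, *PTPRC* and *CDH5* were at most 0.467, and *PECAM1* was at most 0.485 in A549 but at 3.59 to 8.13 in H1792. A549 DMSO replicate 1 was the highest of its group for *RRM1*, *DUT*, *DTYMK*, *TK1* and *NME1*, and results that rest on it are given with and without it.

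The reference sequence before the transcription start site is shown for the reductase subunits, for *TYMS*, for *DCK*, and for *NME1*, the member whose transcript was higher with AMG900. Each run is the 250 bases before a RefSeq start site, 5′ to 3′ on the strand of the gene, build GRCh38.p14. Capitals mark E2F-type letters (the run TTCCCGC, its variant with TTGGCGC, a variant reading TTGCCGC and a last one reading TTCGCGC) and the CCAAT box, searched on both strands, with no match overlapping another.
RRM1, chr11:4094435-4094684, plus strand: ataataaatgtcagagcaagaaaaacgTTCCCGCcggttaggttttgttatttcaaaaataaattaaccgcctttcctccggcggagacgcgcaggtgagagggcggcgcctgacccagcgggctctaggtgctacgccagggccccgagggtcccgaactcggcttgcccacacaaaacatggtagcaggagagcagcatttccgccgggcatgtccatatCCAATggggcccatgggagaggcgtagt
RRM2, chr2:10122318-10122567, plus strand: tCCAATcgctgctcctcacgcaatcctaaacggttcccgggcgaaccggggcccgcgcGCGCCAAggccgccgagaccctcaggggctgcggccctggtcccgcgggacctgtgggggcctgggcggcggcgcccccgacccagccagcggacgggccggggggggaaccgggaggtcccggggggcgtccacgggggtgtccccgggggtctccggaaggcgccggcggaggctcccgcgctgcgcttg
TYMS, chr18:657403-657652, plus strand: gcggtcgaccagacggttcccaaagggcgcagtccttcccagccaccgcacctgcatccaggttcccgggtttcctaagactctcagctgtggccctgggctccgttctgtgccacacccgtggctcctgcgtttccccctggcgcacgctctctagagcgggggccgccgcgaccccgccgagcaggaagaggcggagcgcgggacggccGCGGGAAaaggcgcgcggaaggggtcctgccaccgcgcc
DCK, chr4:70993399-70993648, plus strand: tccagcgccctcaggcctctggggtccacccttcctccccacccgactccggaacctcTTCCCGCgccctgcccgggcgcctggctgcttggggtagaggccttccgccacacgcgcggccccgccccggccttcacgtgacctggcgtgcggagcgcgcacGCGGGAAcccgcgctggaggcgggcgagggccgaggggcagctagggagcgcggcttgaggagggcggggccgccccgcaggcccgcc
NME1, chr17:51153309-51153558, plus strand: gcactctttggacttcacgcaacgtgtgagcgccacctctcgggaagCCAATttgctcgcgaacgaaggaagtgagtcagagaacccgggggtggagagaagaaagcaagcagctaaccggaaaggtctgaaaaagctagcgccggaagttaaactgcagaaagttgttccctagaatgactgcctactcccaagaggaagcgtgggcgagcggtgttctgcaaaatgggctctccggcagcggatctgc

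In these windows the E2F-type letters began 223 bases before the start site in *RRM1*, 192 in *RRM2*, 39 in *TYMS*, and 192 and 88 in *DCK*. *NME1* held none, and its CCAAT match began 203 bases before the start. A second *RRM2* window, chr2:10122489-10122738, is not printed. It held no E2F-type match and 3 CCAAT matches, which began 123, 93 and 66 bases before its start site. Across the 14 windows RefSeq gives for the 9 genes, 6 genes had an E2F-type match (the fifth and the sixth were *DUT* and *TK1*) and 5 had a CCAAT match (*RRM1*, *RRM2*, *DTYMK*, *TK1* and *NME1*). Counted by window, 6 of the 14 held an E2F-type match and 6 a CCAAT match. Among all 35116 windows of this length, 10.9% held an E2F-type match and 32% a CCAAT match. The *DCTPP1* window, chr16:30429801-30430050, held neither. Its letters include a start codon with coding letters after it, so it reaches into the gene. Most of the sequence before *DCTPP1* was therefore not searched, and whether it holds a match is not known. *DTYMK*, whose window is not printed and held no E2F-type match, was also lower with AMG900 in A549. Whether a match goes with the direction of change was not tested. A match describes the letters of the window and not binding.

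In A549, 8 of the 9 genes were lower with AMG900 at a false discovery rate (FDR) under 0.01 and 1, *NME1*, was higher. The background was 17.8% of 13174 tested genes lower and 17.2% higher. The median log2 fold change was -1.42 over the 9 genes and -0.01 over all genes tested. In H1792, 7 of the 9 were lower, *NME1* was higher and *DTYMK* did not pass, beside a background of 18.8% of 15017 genes lower and 16.2% higher. The H1792 median was -0.55, against 0.01 over all genes. In both lines 8 genes had every AMG900 library below every DMSO library, which 22.0% of genes showed in A549 and 29.6% in H1792. *NME1* had every AMG900 library above, as 21.9% of genes did in A549 and 30.1% in H1792. The summed CPM of the 9 genes, scaled over all 14 libraries, was 910 to 1110 with DMSO and 485 to 524 with AMG900 in A549. In H1792 the sum was 904 to 987 with DMSO and 724 to 754 with AMG900. In this sum *NME1* took 21.0% to 21.8% in A549 with DMSO and 52.6% to 58.1% with AMG900. In bulk RNA, fewer cells that express a gene and less RNA per cell cannot be told apart, which holds for every value here.

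**Figure D1:**
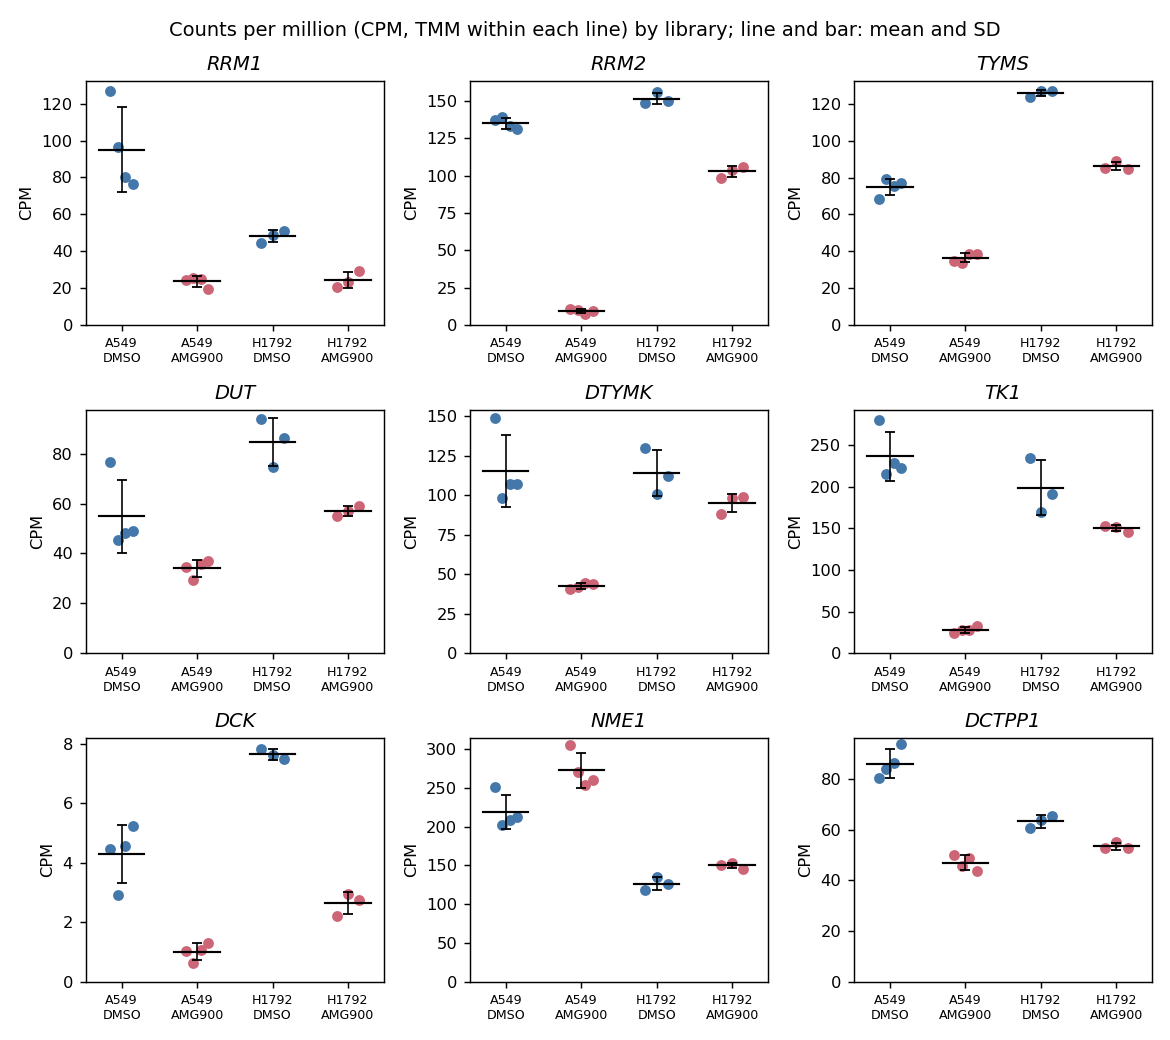
CPM of each gene (y axis, linear, from 0) in the 14 libraries, by line and treatment (x axis). Points are libraries, the wide line is the group mean and the bar its SD. *RRM2* and *TK1* in A549 with AMG900 lay near the axis, at most 10.9 and 33.3 CPM, while in H1792 they stayed above 98 and 145.

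Of the 9 genes, the small subunit of ribonucleotide reductase had the largest fold change in A549. *RRM2* (chromosome 2, 10260825 to 10351851, GRCh37), the small subunit that carries the tyrosyl radical and whose level follows the cell cycle, was at 137, 139, 133 and 131 CPM in the A549 DMSO libraries and at 10.9, 9.62, 7.55 and 9.24 with AMG900. The groups were far apart, with little spread in either. The log2 fold change was -3.87 (SE 0.11, edgeR adjusted p = 3.5e-12), the 20th lowest of the 13174 genes tested. In H1792 *RRM2* was at 149, 156 and 150 CPM with DMSO and 98.5, 104 and 106 with AMG900. The H1792 groups did not overlap either, but every treated library kept over 98 CPM. For H1792 this gave a log2 fold change of -0.56 (SE 0.05, adjusted p = 2.3e-05), and -0.31 (adjusted p = 3.3e-04) after correction for GC content.

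*RRM1* (chromosome 11, 4115937 to 4160162), the large subunit with the catalytic and allosteric sites, was at 127, 96.5, 80.2 and 76.3 CPM with DMSO and 24.2, 25.6, 25.0 and 19.3 with AMG900 in A549. All treated libraries lay below the DMSO libraries, which were spread widely. Its log2 fold change was -2.00 (SE 0.15, adjusted p = 8.1e-08), and -1.84 without DMSO replicate 1. In H1792 the values were 44.4, 49.0 and 51.0 with DMSO and 20.6, 23.0 and 29.4 with AMG900, a log2 fold change of -0.98 (SE 0.12, adjusted p = 8.4e-05). On a scale common to all libraries, the treated libraries of the lines overlapped, whereas the DMSO libraries of A549 all lay above those of H1792.

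The balance of the subunit transcripts moved in A549. Per length, the ratio of *RRM2* to *RRM1* was 1.05, 1.39, 1.60 and 1.65 with DMSO and 0.433, 0.363, 0.292 and 0.461 with AMG900, so that all DMSO libraries had more *RRM2* and all treated libraries more *RRM1*. The log2 ratio differed by -1.88 (two-sided exact permutation test, p = 0.0286, the smallest p that 4 against 4 libraries allow). In H1792 the ratio was 3.24, 3.06 and 2.84 with DMSO and 4.61, 4.36 and 3.49 with AMG900. These groups did not overlap and lay the other way, by 0.44 in log2 (exact permutation p = 0.1, the smallest that 3 against 3 allow, so that 0.05 cannot be reached).

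**Figure D2:**
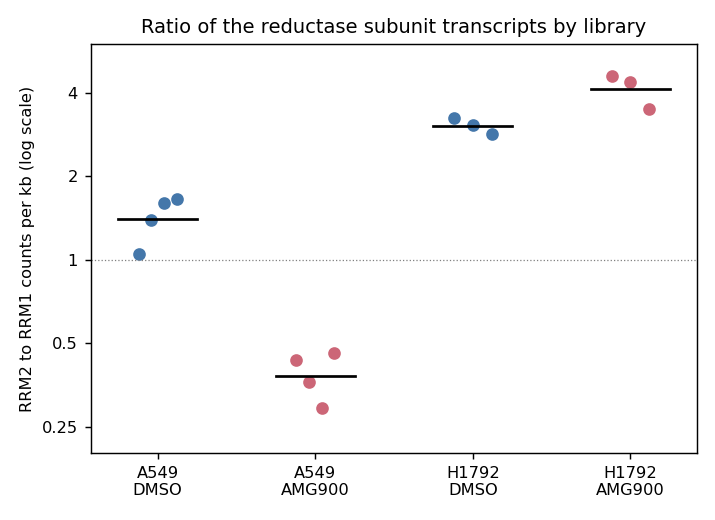
Ratio of RRM2 to RRM1 counts per kilobase of the canonical transcript (y axis, log scale) in each library, by line and treatment (x axis). Points are libraries, the black line is the geometric mean, and the dotted line marks equal levels. The A549 AMG900 libraries (0.292 to 0.461) are the only ones below 1, and those of H1792 (3.49 to 4.61) lie highest.

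The alternative small subunit, *RRM2B*, which is a p53 target and serves cells outside S phase, followed another course. In A549 its mean was 7.81 ± 4.22 CPM (SD, n = 4) with DMSO, where replicate 1 stood at 14.1, and 7.81 ± 0.953 (n = 4) with AMG900. Its log2 fold change was 0.12 (adjusted p = 0.728), or 0.46 (adjusted p = 0.0384) without that library, and 0.71 (adjusted p = 0.035) after GC correction. In H1792 *RRM2B* was at 2.73 ± 0.404 CPM (n = 3) with DMSO and fell to 0.79 ± 0.196 with AMG900, by a log2 fold change of -1.76 (adjusted p = 1.4e-04), and of -1.04 (adjusted p = 0.00212) after GC correction. The difference in effect, H1792 minus A549, was -1.97 (adjusted p = 8.9e-04), opposite in sign to that of *RRM2*.

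The genes of thymidylate synthesis also fell in A549, with fold changes smaller than those of the reductase subunits, a difference that was not tested. *TYMS* (chromosome 18, 657653 to 673578), which methylates deoxyuridine monophosphate and is the target of 5-fluorouracil, was at 68.6, 79.1, 75.3 and 76.8 CPM with DMSO and 34.8, 33.8, 38.7 and 38.6 with AMG900 in A549. The treated libraries were tightly grouped and well below the DMSO libraries. This was a log2 fold change of -1.04 (SE 0.09, adjusted p = 2.6e-07). In H1792 *TYMS* was at 124, 127 and 127 with DMSO and 85.4, 88.9 and 84.4 with AMG900, a log2 fold change of -0.55 (SE 0.05, adjusted p = 2.0e-05). Of the *TYMS* exon bases, 39.9% are shared with *ENOSF1* on the opposite strand, and the strand setting of the counting is not given in the sources used here. *ENOSF1* itself had log2 fold changes of -0.16 (adjusted p = 0.281) and -0.12 (adjusted p = 0.299) in A549 and H1792.

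*DUT* (chromosome 15, 48623208 to 48635570), the dUTPase that keeps uracil out of DNA and supplies the TYMS substrate, was at 76.6, 45.3, 48.2 and 49.2 CPM with DMSO in A549 and 34.7, 29.2, 35.6 and 36.8 with AMG900. A single DMSO library stood well above the others, and the groups still did not overlap. AMG900 gave a log2 fold change of -0.66 (SE 0.15, adjusted p = 0.00198), and -0.48 without DMSO replicate 1. The call was lost without AMG900 replicate 2 (adjusted p = 0.0101) and after GC correction (-0.41, adjusted p = 0.0455). In H1792 *DUT* was at 93.7, 74.5 and 86.1 with DMSO and 55.1, 57.2 and 59.2 with AMG900, a log2 fold change of -0.57 (SE 0.08, adjusted p = 2.4e-04).

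*DTYMK* (chromosome 2, 242615162 to 242626359), the thymidylate kinase on which the synthesis and the salvage routes meet, was at 149, 98.6, 107 and 107 CPM with DMSO in A549 and 40.4, 42.0, 44.7 and 43.6 with AMG900. Its log2 fold change was -1.42 (SE 0.11, adjusted p = 1.8e-07), and -1.29 without DMSO replicate 1. In H1792 the values were 130, 101 and 112 with DMSO and 88.3, 98.6 and 98.7 with AMG900. These groups came within a few CPM of each other. The log2 fold change was -0.26 (95% confidence interval -0.46 to -0.07, adjusted p = 0.0289), which did not pass. It passed under 6 alternatives, among them without DMSO replicate 2 (-0.36, adjusted p = 0.00187), with DESeq2 (adjusted p = 0.00976) and after GC correction (-0.53, adjusted p = 7.3e-05).

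Among the salvage kinases, *TK1* (chromosome 17, 76170172 to 76183314), the cytosolic thymidine kinase used as a serum marker of proliferation, was at 280, 215, 228 and 223 CPM with DMSO in A549 and 24.4, 28.4, 27.8 and 33.3 with AMG900. No treated library came near the DMSO range. Its log2 fold change was -3.05 (SE 0.11, adjusted p = 3.1e-11), the 88th lowest of all genes tested, and -2.96 without DMSO replicate 1. In H1792 *TK1* was at 235, 170 and 191 with DMSO and 153, 152 and 146 with AMG900, with the groups apart but the DMSO libraries widely spread. The log2 fold change of -0.41 (SE 0.10, adjusted p = 0.00563) did not pass without DMSO replicate 3 or without any single AMG900 library (adjusted p up to 0.0301), and was -0.72 after GC correction.

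*DCK* (chromosome 4, 71858255 to 71896631), the deoxycytidine kinase that also activates gemcitabine and cytarabine, was the least abundant of the 9. In A549 it was at 4.46, 2.91, 4.56 and 5.22 CPM with DMSO and 1.04, 0.632, 1.08 and 1.29 with AMG900, from 9 to 88 counts per library. The resulting log2 fold change was -2.07 (SE 0.30, adjusted p = 6.8e-05), the widest error of the 9. In H1792 *DCK* was at 7.83, 7.61 and 7.48 with DMSO and 2.22, 2.95 and 2.75 with AMG900. This log2 fold change of -1.54 (SE 0.13, adjusted p = 1.1e-05) was the largest of the 9 in H1792, and it was -0.86 after GC correction. The *DCK* transcript had the lowest GC content of the 9, at 35.4%, and *TK1* the highest, at 60.3%.

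The mitochondrial salvage kinases took other values. *TK2*, the mitochondrial thymidine kinase, had a log2 fold change of 0.43 (adjusted p = 0.00229) in A549, and 0.04 (adjusted p = 0.593) in H1792. The A549 call was lost under total-count scaling (0.35, adjusted p = 0.0106), without DMSO replicate 4 (adjusted p = 0.0101) and without AMG900 replicate 3 (adjusted p = 0.0102). The line difference for *TK2* was -0.46 (adjusted p = 0.00726), beside a median difference of -0.1 over all genes in that fit. The line differences of *TK2* and *RRM2B* were not run under the alternative settings. *DGUOK*, the mitochondrial deoxyguanosine kinase, had 0.16 (adjusted p = 0.209) in A549 and 0.28 (adjusted p = 0.00644) in H1792. *SAMHD1*, which degrades dNTPs, had -0.15 (adjusted p = 0.413) and 0.20 (adjusted p = 0.0813). *DCTD*, the deaminase that feeds TYMS from deoxycytidylate, had 0.00 (adjusted p = 0.965) in A549 and 0.28 (adjusted p = 0.00351) in H1792. The H1792 calls of *DGUOK* and *DCTD* were lost under total-count scaling (adjusted p = 0.041 and 0.0245), and without DMSO replicate 3 or any single AMG900 library (adjusted p up to 0.0303 and 0.0202).

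*NME1* (chromosome 17, 49230920 to 49239789), a nucleoside diphosphate kinase that adds the last phosphate and is also known as the metastasis suppressor NM23-H1, was the exception in direction. In A549 it was at 251, 202, 209 and 212 CPM with DMSO and 305, 271, 254 and 260 with AMG900. The lowest treated library exceeded the highest DMSO library by a few CPM. The log2 fold change was 0.32 (SE 0.08, adjusted p = 0.00541), and 0.39 without DMSO replicate 1. In H1792 *NME1* was at 118, 135 and 126 with DMSO and 151, 153 and 146 with AMG900, a log2 fold change of 0.25 (SE 0.06, adjusted p = 0.0072). Both calls were close to the threshold, and both were lost under total-count scaling (0.25, adjusted p = 0.0174 in A549, and 0.18, adjusted p = 0.0496 in H1792). In A549 the call was also lost without DMSO replicate 2, 3 or 4 or AMG900 replicate 1 or 2, and in H1792 without DMSO replicate 3 or any single AMG900 library.

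*NME1* shares 18.7% of its exon bases with the readthrough gene *NME1-NME2*, and its neighbour *NME2* encodes a close homologue, so reads could be split among them. *NME2* had log2 fold changes of 0.25 (adjusted p = 0.223) in A549 and 0.78 (adjusted p = 6.8e-06) in H1792. *NME1-NME2* was counted 2, 2, 2 and 18 times in the A549 DMSO libraries and 12, 27, 47 and 24 times with AMG900. With the counts of all 3 summed, the log2 fold change was 0.29 (adjusted p = 0.00983) in A549 and 0.55 (adjusted p = 3.9e-05) in H1792, an alternative chosen after seeing the data. The ratio of *NME2* to *NME1* per length differed by -0.08 in log2 in A549 (exact permutation p = 0.771) and by 0.53 in H1792 (exact permutation p = 0.1, the smallest possible).

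*DCTPP1* (chromosome 16, 30434936 to 30441351), which hydrolyses dCTP and modified cytosine nucleotides, was at 80.4, 83.9, 86.4 and 93.7 CPM with DMSO in A549 and 50.0, 45.5, 48.7 and 43.6 with AMG900. The groups were clearly apart, with a log2 fold change of -0.88 (SE 0.08, adjusted p = 9.3e-07). In H1792 it was at 60.6, 64.0 and 65.5 with DMSO and 52.8, 55.0 and 52.6 with AMG900. In this line the log2 fold change was -0.25 (SE 0.06, adjusted p = 0.00502). This call was lost without DMSO replicate 3 or any single AMG900 library (adjusted p up to 0.0316), and the value was -0.46 after GC correction. *DCTPP1* shares 41.2% of its exon bases with *ZNF771* on the opposite strand, a gene looked at for that overlap, which had 0.23 (adjusted p = 0.191) in A549 and 0.08 (adjusted p = 0.541) in H1792.

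The effect of AMG900 differed between the lines for 6 of the 9 genes, all in the direction of a smaller decrease in H1792. In this joint fit of 14 libraries, 5.37% of 14769 genes were called with a higher and 9.17% with a lower effect in H1792. The difference in log2 effect was 3.24 for *RRM2* (SE 0.12, adjusted p = 3.8e-13) and 2.56 for *TK1* (SE 0.16, adjusted p = 4.6e-10), the 2 largest of the 9. It was 1.08 for *DTYMK* (adjusted p = 5.1e-05), 0.93 for *RRM1* (adjusted p = 0.00247), 0.56 for *DCTPP1* (adjusted p = 5.8e-04) and 0.42 for *TYMS* (adjusted p = 0.00544). With AMG900, *RRM2* was 11.2-fold higher in H1792 than in A549 and *TK1* 5.36-fold, whereas with DMSO the ratios were 1.2 and 0.901. The *TYMS* difference missed the threshold when any of 11 of the 14 libraries was left out (adjusted p up to 0.0213), the exceptions being A549 DMSO replicate 1 and A549 AMG900 replicates 3 and 4, and that of *RRM1* without H1792 AMG900 replicate 3 (0.77, adjusted p = 0.0112).

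No difference in effect was called for *DUT*, *DCK* and *NME1*. The estimate was 0.00 for *DUT* (95% confidence interval -0.38 to 0.39), 0.47 for *DCK* (-0.20 to 1.14, adjusted p = 0.304) and -0.15 for *NME1* (-0.38 to 0.08, adjusted p = 0.339). These intervals still hold differences of moderate size, widest for *DCK*, whose counts were low in A549.

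**Figure D3:**
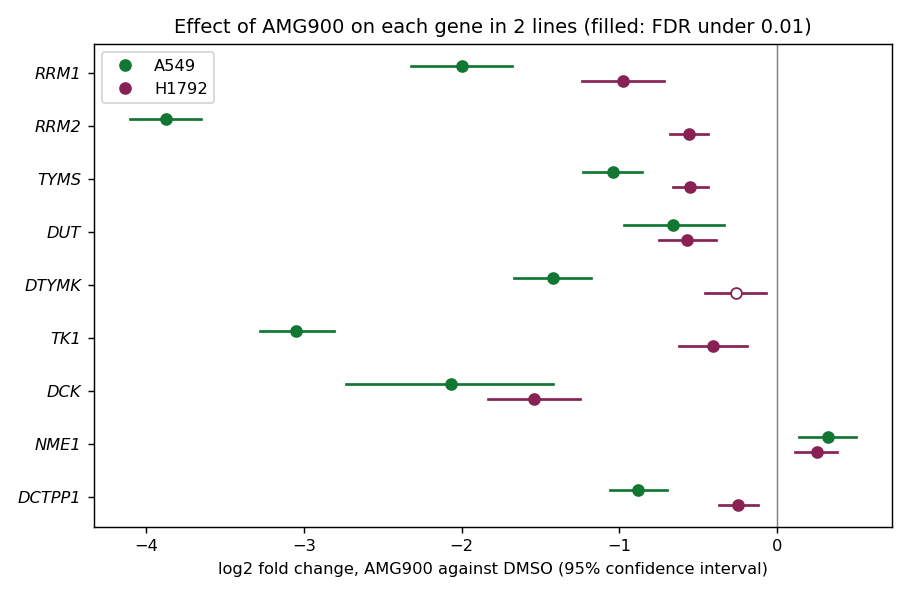
Log2 fold change of AMG900 against DMSO (x axis) for each gene (y axis) in A549 (green) and H1792 (purple), with 95% confidence intervals, and a filled point where FDR was under 0.01. *RRM2* (-3.87 and -0.56) and *TK1* (-3.05 and -0.41) have the widest gap between lines, and the intervals of *DUT*, *DCK* and *NME1* overlap.

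With DMSO alone, 7 of the 9 genes differed between the lines, beside 66.1% of all genes (31.9% lower and 34.2% higher in H1792). *TYMS* (0.84, adjusted p = 2.6e-09), *DCK* (0.92, adjusted p = 4.1e-04), *DUT* (0.77, adjusted p = 3.0e-05) and *RRM2* (0.27, adjusted p = 0.00339) were higher in H1792. *RRM1* (-0.86, adjusted p = 2.6e-05), *NME1* (-0.69, adjusted p = 2.3e-07) and *DCTPP1* (-0.35, adjusted p = 3.0e-04) were higher in A549. *DTYMK* (0.10, 95% confidence interval -0.13 to 0.33) and *TK1* (-0.14, -0.37 to 0.08) had overlapping groups. The *RRM2* call was lost under total-count scaling (0.16, adjusted p = 0.0616) and without A549 DMSO replicate 4 or H1792 DMSO replicate 2, and *TK1* was called after GC correction (-0.34, adjusted p = 2.7e-04).

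Levels of different genes can be compared per kilobase, here of 1 canonical transcript per gene, which is 890 bases for *NME1* and 3142 for *RRM1*. Over all annotated transcripts the exon bases are 3415 and 4233. The order below holds for the canonical lengths and was not computed on the others. In A549 with DMSO the order in CPM per kilobase was *NME1* (235 ± 22.4, SD, n = 4), *TK1* (158 ± 18.3), *DTYMK* (105 ± 20), *DCTPP1* (69.7 ± 5.49), *TYMS* (44.4 ± 2.93), *RRM2* (39.6 ± 0.578), *RRM1* (28.8 ± 6.59), *DUT* (24.4 ± 6.28) and *DCK* (1.64 ± 0.389). Neighbours overlapped between *TYMS* and *RRM2* and between *RRM1* and *DUT*. With AMG900 *TK1* moved to the fifth place (20.1 ± 2.86) and *RRM2* to the eighth (2.89 ± 0.413), below *RRM1* (7.55 ± 0.852), while *NME1* stayed first (309 ± 23.6). Here *TK1* overlapped with *TYMS* (22.8 ± 1.75) above it and *DUT* (16.1 ± 1.65) below it, as did *DTYMK* with *DCTPP1*, so that the fourth to sixth places were not distinct. In H1792 *NME1* (145 ± 10.1, n = 3), *TK1* (142 ± 23.7) and *DTYMK* (111 ± 14.5) overlapped in turn with DMSO. The order of the 9 genes in H1792 was the same with AMG900, from *NME1* (173 ± 4.39) and *TK1* (108 ± 2.29) down to *RRM1* (7.96 ± 1.5) and *DCK* (1.08 ± 0.155).

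Beyond the 9 enzymes, 60 other genes of nucleotide metabolism were listed by function, and 59 were tested in each line. In A549, 26 (44.1%) were lower and 9 (15.3%) higher, beside 17.8% and 17.2% of all genes, with a median log2 fold change of -0.20 (-0.01 over all genes). In H1792, 15 (25.4%) were lower and 12 (20.3%) higher, beside 18.8% and 16.2% of all genes, with a median of 0.04 (0.01 over all genes). *De novo* purine synthesis had 10 of 13 genes lower and 1 higher in A549, and 8 lower and 2 higher in H1792. *De novo* pyrimidine synthesis had 4 of 5 lower in A549 and 0 called by edgeR in H1792, where 3 were under an unadjusted p of 0.05, DESeq2 called 1, and the values ran from -0.29 to -0.11. The list for the folate cycle and thymidylate had 5 of 8 lower and 1 higher in A549, and 2 lower in H1792. The 1 higher gene was *TYMP*, a thymidine phosphorylase and not a folate enzyme. The other deoxynucleotide enzymes had 2 of 16 (12.5%) lower and 4 (25%) higher in each line, near the shares over all genes. Without A549 DMSO replicate 1 this list had 3 lower and 6 higher of 16 in A549, beside 2978 and 2876 of 13452 genes. The reductants of the reductase, thioredoxins and glutaredoxins, had 2 of 5 lower and 1 higher in A549, and 1 lower and 2 higher in H1792. Salvage of ribonucleosides and bases had 3 of 12 lower and 2 higher in A549, and 2 lower and 4 higher in H1792. In the joint fit 3 of the 60 (5%) had a lower and 6 (10%) a higher effect in H1792, beside 9.17% and 5.37% of all genes. The H1792 count of higher genes was 7 without DMSO replicate 3 or any single AMG900 library and under total-count scaling. Over all genes, 1524 of 15413 were higher without DMSO replicate 3, and 1859 of 15017 under total-count scaling. Without AMG900 replicate 1, 2 or 3, higher calls over all genes were 1382 of 15142, 1464 of 15381 and 1708 of 15139. The count on the list was 17 without H1792 DMSO replicate 1, beside 3047 of 15180 genes. After GC correction 22 were lower in H1792, beside 3322 of 15017 genes. In A549 28 were lower and 11 higher without DMSO replicate 1.

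Large decreases among these genes in A549 were those of *GMPS*, the GMP synthetase (-1.73, adjusted p = 0.0021, or -1.09 without DMSO replicate 1, which stood at 65.8 CPM), and *NUDT1*, which clears oxidised purine nucleotides (-1.48, adjusted p = 1.0e-07). The *GMPS* call was lost after GC correction (-1.26, adjusted p = 0.014) and without AMG900 replicate 4 (-1.68, adjusted p = 0.0104). The largest increases in A549 were those of *ADSSL1*, an adenylosuccinate synthase (1.69, adjusted p = 6.5e-06), *TYMP*, the thymidine phosphorylase (1.36, adjusted p = 3.0e-06, or 0.84 after GC correction), and *CDA*, the cytidine deaminase (1.32, adjusted p = 6.7e-07).

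In H1792 the largest decreases after *RRM2B* were those of *ADSS*, the other adenylosuccinate synthase (-1.64, adjusted p = 3.2e-06), and *CMPK1*, the UMP and CMP kinase (-1.15, adjusted p = 3.6e-06, or -0.65 after GC correction). The largest increases were those of *CDA* (1.48, adjusted p = 1.3e-06), *ADSSL1* (1.07, adjusted p = 0.00278) and *NME2*. The *ADSSL1* call in H1792 was lost without DMSO replicate 3 (1.02, adjusted p = 0.0126) and without AMG900 replicate 3 (0.89, adjusted p = 0.0174). *TYMP* had 0.06 in H1792 (adjusted p = 0.734), and -0.28 (adjusted p = 0.00532) after GC correction.

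**Figure D4:**
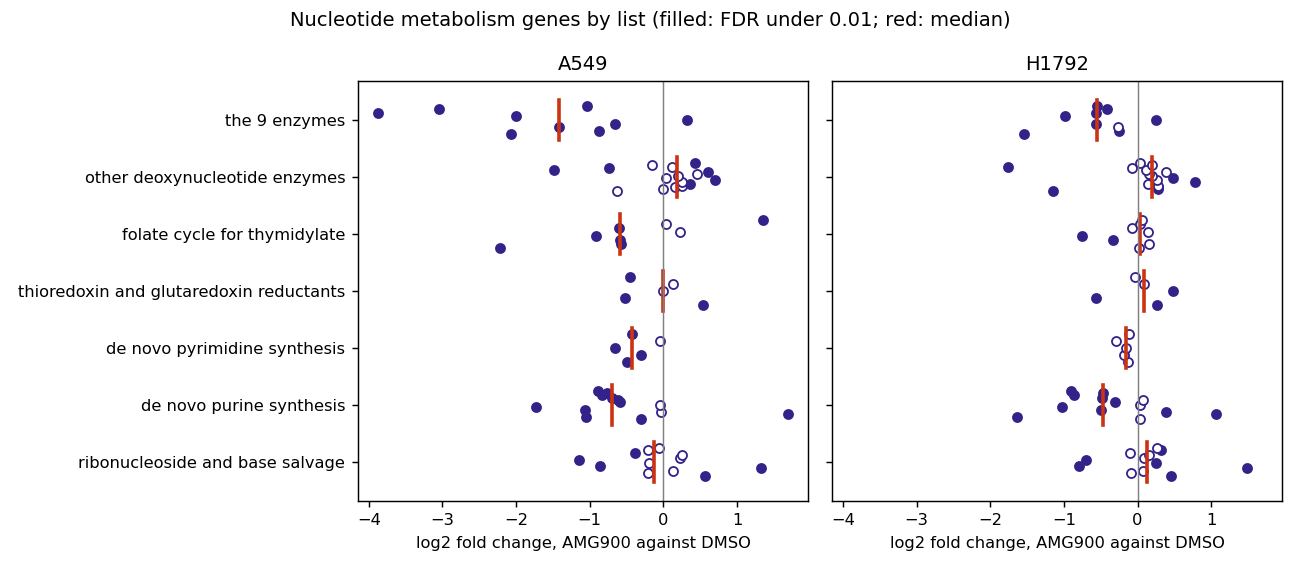
Log2 fold change of AMG900 against DMSO (x axis) for the 9 enzymes and for 6 functional lists of other nucleotide metabolism genes (y axis), in A549 (left) and H1792 (right). Each point is a gene, filled where FDR was under 0.01, and the red bar is the median of the list. The 9 enzymes have their median at -1.42 in A549 and -0.55 in H1792.

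Over the 14 libraries, after each line's mean was subtracted, the genes with the pattern most like *RRM2* were *CDCA5* and *MCM10* (Pearson r = 0.997 for both). Those most like *TK1* were *CHAF1A* (0.997) and *E2F1* (0.996), and those most like *TYMS* were *HMGN2* (0.992) and *TBC1D14* (0.986). For *NME1* they were *ZFAS1* (0.959) and *STX4* (0.938). These values describe likeness among 8501 genes whose mean in each table reached 100 counts, and the points share the treatment, the library and its depth.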

How the data were processed

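Total RNA was sequenced by RNA-seq, and the authors deposited raw read counts per gene for 14 libraries, 1 table per line. The submitters' processing notes name STAR, HTSeq and hg19/GRCh37, with no versions, and the strand setting is not given in the sources used here. The deposited counts were used as they stand, except 28 H1792 entries whose symbols had turned into dates. The 9 genes and all lists were chosen with earlier results of these data known.

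Each line was fitted alone with edgeR 4.0.16 in R 4.3.3 (quasi-likelihood F test, TMM scaling, filterByExpr, Benjamini-Hochberg adjustment over all genes tested, FDR 0.01, which is the study's threshold). The filter asked for 0.729 CPM in A549 and 0.182 in H1792, which all 9 genes passed, 8 of them in every A549 library and 9 in every H1792 library. Low counts make changes of rare genes less certain. Effects were compared between lines, and DMSO groups between lines, in a joint fit of 14 libraries. CPM are scaled within a line unless a joint scale is stated. A prior count of 2 entered only the log2 CPM used for correlations, not the fold changes or the ratios. All adjusted p-values are from edgeR unless DESeq2 is named, and ratios of 2 transcripts were compared by two-sided exact permutation tests over libraries. Alternatives were DESeq2 1.42.0, its size factors, total-count scaling, no filter, a minimum of 10 counts, GC correction with a spline, a replicate block, an FDR of 0.05, a 2-fold threshold and each library left out. The scripts were tested on simulated data.

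Partner genes were named by function or shared locus, and of the pathway lists the 3 largest decreases and 3 largest increases that passed in each line were named. The result of 1 gene that this rule named is not reported here. Genes with a like pattern were the 2 with the highest correlation. Positions, lengths, overlaps and GC content came from the GENCODE annotation of GRCh37, and promoter windows from RefSeq, GRCh38.p14. Lengths and GC content were those of the canonical transcript, whereas shared exon bases were counted over all annotated transcripts. Replicate numbers did not pair the samples, as described with the effects of processing.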

Additional observations from a re-analysis of the deposited data

Results flagged for a closer look

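Among the 18 groups of 4 libraries examined for a library apart from the rest, 1 was found, *DUT* in A549 with DMSO, whose highest library stood at 76.6 CPM. Chance alone marks about 5% of such groups.

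The effect of AMG900 differed between H1792 and A549, by the interaction test in edgeR, for *RRM1* (0.93), *RRM2* (3.24), *TYMS* (0.42), *DTYMK* (1.08), *TK1* (2.56) and *DCTPP1* (0.56), each the log2 effect in H1792 minus that in A549.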

How the results depend on the processing

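The 8 A549 decreases numbered 6 to 8 under every alternative run, and 7 to 8 with a library left out. The single increase in A549, *NME1*, numbered 0 under total-count scaling, GC correction and the 2-fold threshold (0 to 1 with a library left out), and that in H1792 numbered 0 under total-count scaling, the replicate block and the 2-fold threshold (0 to 1). With the 2-fold threshold 1 of the 7 decreases in H1792 remained as a count (5 to 8 with a library left out), as did 3 of the 6 differences in effect (4 to 6) and 0 of the 7 DMSO differences by edgeR (6 to 7), since the threshold asks for more change. The DMSO difference of *DTYMK* changed sign under total-count scaling (-0.01) and GC correction (-0.03), and the cause was not tested. Over all values and settings, 631 kept direction and side of the threshold, 61 missed it, 7 newly passed and 2 changed sign. The *RRM2* to *RRM1* difference stayed between -2.02 and -1.75 in A549 and between 0.36 and 0.56 in H1792 with a library left out. Total-count scaling changed the split of calls over all genes from 2340 lower and 2265 higher to 2850 and 1870 in A549, and from 2827 and 2439 to 3229 and 1859 in H1792. For the difference in effect the split was 1355 lower and 793 higher, against 1033 and 1012 with DESeq2 size factors, 1047 and 988 with total counts, 1288 and 1226 with GC correction, and 1450 and 1416 with DESeq2. The median DMSO difference of all genes was 0.04, and -0.07 with total counts. With at least 10 counts in every library, *DCK* could not be fitted in A549. Low depth limits *DCK* in A549 most.

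The replicate numbers did not pair the samples: same-numbered libraries correlated at -0.04 to 0.01 in A549 and -0.06 to 0.04 in H1792, and 1 of 7 numbers correlated best with its own. With the number as a block, *NME1* (adjusted p = 0.0107) and *DCTPP1* (adjusted p = 0.0141) in H1792 and the *TYMS* difference in effect (adjusted p = 0.0157) missed the threshold, so the replicate block left 0 increases in H1792.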
